A study of Temora longicornis with 12 samples.

Results

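Copepods that had been warmed and then cooled back were compared with copepods that stayed warm. The animals were whole adults of Temora longicornis, a small planktonic crustacean of coastal seas, and expression was measured by sequencing their messenger RNA. Both groups were brought to 17 °C over 24 h. The sustained group then stayed at 17 °C to the end, whereas the recovery group spent the last 24 h at 14 °C again. The remaining groups, used here for reference levels, were a control group held at 14 °C throughout and an acute group held at 14 °C for 4 days and then at 17 °C for 24 h. Exposure lasted 120 h in each group, in dark, aerated vessels, and 3 of 4 vessels per group were sequenced. The number of animals pooled per vessel is not given in the sources used here. The libraries were taken by their treatment label, which gave 6 of the 12 libraries, 3 sustained and 3 recovery. Of 44985 assembled transcripts, 40943 had enough counts to be tested. Transcripts are labelled by the Trinity assembler and are not paired with gene names, so neither position, sequence nor function is stated for any of them.

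Copepods take the temperature of the water around them. In animals in general, warming induces chaperones, the heat shock proteins that keep other proteins folded, and shifts metabolism, membrane composition and protein turnover. On return to a cooler temperature these messenger RNAs can fall back within hours while slower changes persist, so a last day in cooler water can show which levels follow the current temperature and which keep the mark of the earlier one. Here such genes could not be looked up by name, and the comparison rests on transcripts as assembled.

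The 6 libraries held 19559173 to 32504862 counts. A large part of these came from a single transcript, TRINITY_DN157064_c6_g3_i1, which took 19.4%, 7.04% and 43.8% of all counts in sustained replicates 1 to 3 and 53.1%, 47.2% and 19.3% in recovery replicates 1 to 3. The groups overlapped in this share, and the difference of 16.5 percentage points had a two-sided exact permutation p of 0.3 (adjusted p = 0.4 over 4 library measures), where 3 libraries against 3 allow no p below 0.1. After thinning each library to 19559173 counts, 10 or more counts were found for 34964 ± 2202 transcripts in sustained libraries and for 32326 ± 3646 in recovery libraries (SD, n = 3, exact permutation p = 0.4, adjusted p = 0.4). Recovery libraries resembled each other no more than they resembled sustained libraries. Spearman correlations of log2 level across transcripts were 0.907 to 0.924 for the 3 pairs within the recovery group, 0.93 to 0.945 for the 3 pairs within the sustained group and 0.902 to 0.942 for the 9 pairs between groups. The lowest of these joined sustained replicate 2 with recovery replicate 1, and the highest between groups joined sustained replicate 1 with recovery replicate 1.

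**Figure D1:**
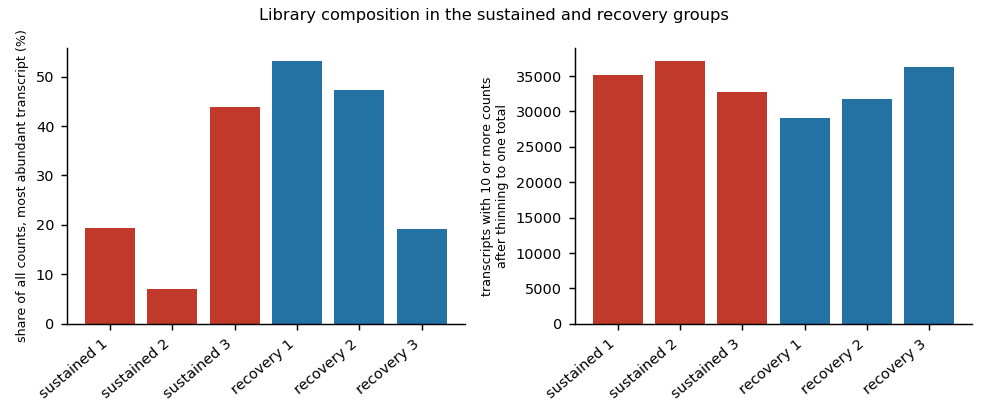
Share of all counts taken by TRINITY_DN157064_c6_g3_i1 (left, %) and number of transcripts with 10 or more counts after thinning to 19559173 counts (right) in each sustained and recovery library, 1 bar per library. Recovery replicates 1 and 2 and sustained replicate 3 have the tall bars on the left, and the groups overlap in both panels.

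A last day at 14 °C left no transcript past the test. With edgeR's quasi-likelihood test, 0 of 40943 transcripts (0%) had a Benjamini-Hochberg adjusted p under 0.05, and the lowest adjusted p was 1. Before adjustment, p was under 0.05 for 877 transcripts, which is 2.14% of those tested. Of these, 369 (0.901%) were higher and 508 (1.24%) lower in the recovery group, and evenly spread p-values would give 2047. The 877 became 550 without sustained replicate 2 and 2316 without recovery replicate 3. The split of 42.1% higher depended on scaling and became 6.29% when libraries were scaled by their totals alone, a scaling that moved the median log2 difference of all transcripts from 0.01 to -0.33. In other tests, 9 transcripts were called by DESeq2 (0.022%), 1 by the exact test of edgeR (0.00244%) and 0 by limma voom (0%, with quality weights). Unadjusted p was under 0.05 for 1063, 917 and 2077 transcripts in these tests. Libraries are of whole animals, so fewer cells of a type and less RNA per cell cannot be told apart in any value given here.

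**Figure D2:**
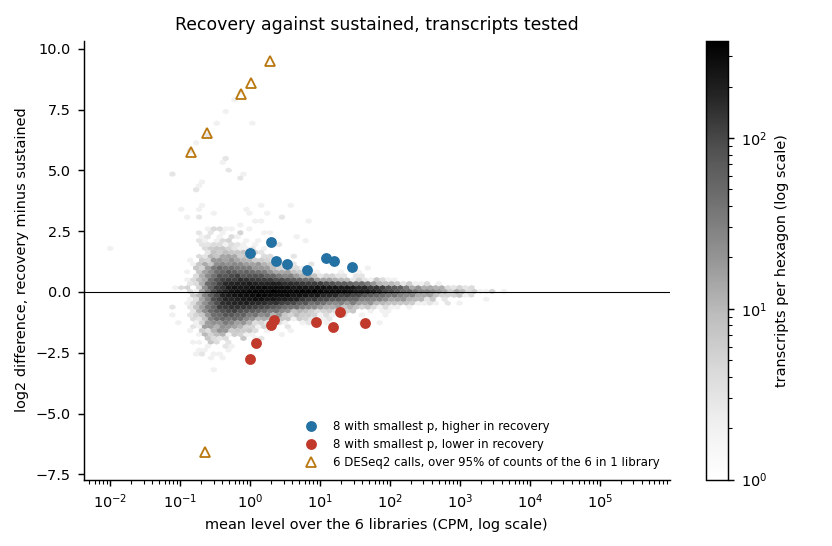
Log2 difference between recovery and sustained groups (vertical axis) against mean level over the 6 libraries (horizontal axis, CPM, log scale) for the 40943 transcripts tested, shaded by number of transcripts per hexagon. Coloured points mark the 8 transcripts with the smallest p in each direction, and triangles mark 6 DESeq2 calls with over 95% of their counts over the 6 libraries in 1 of them, with fitted differences that depend on the prior count.

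Most differences were small and bounded. The middle 50% of log2 differences, between the 25th and 75th percentiles, lay from -0.25 to 0.22, and the 2.5th and 97.5th percentiles were -1.04 and 1.02. For 83% of transcripts a difference beyond 4-fold lay outside the 95% interval, and for 38.8% a difference beyond 2-fold did. Precision followed level, given as CPM, counts scaled to a common library size. Among the 1129 transcripts at 100 CPM or more, 86.4% had an interval within 2-fold and 97.2% within 4-fold, with a median half-width of 0.39 on the log2 scale. Among the 13113 transcripts under 1 CPM, 1.09% and 57.4% did, with a median half-width of 1.42. For most transcripts under 1 CPM the interval thus did not exclude a difference beyond 2-fold. Detection was limited at higher levels too. In simulated counts, with changes placed at a mean of 1 CPM or more, edgeR's quasi-likelihood test recovered 4 of 50 2-fold changes. It recovered 27 of 50 4-fold changes and 45 of 50 8-fold changes. Each simulated library had the same mean composition and transcripts varied independently, unlike the real libraries, so these numbers may not carry over. The share with an unadjusted p under 0.05 was 2.36% under 1 CPM, 2.18% from 1 to 10 CPM, 1.61% from 10 to 100 CPM and 2.66% at 100 CPM or more.

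A count that uses no model of the spread gave a like picture. All 3 libraries of a group lay above all 3 of the other for 3182 transcripts (7.77%), of which 1578 (3.85%) were higher and 1604 (3.92%) lower in the recovery group. If all orderings of the libraries were equally likely, a share of 0.1 would separate in this way. The share of 7.77% is below that. Group means were also at least 2-fold apart for 355 of the transcripts tested (0.867%), 163 higher (0.398%) and 192 lower (0.469%), after adding 0.2 CPM. This near-even split depended on scaling, and with library totals alone 45 were higher and 534 lower, of 40943 tested. Of these 355, 106 higher and 121 lower ones were at a mean under 1 CPM, 1.73% of the 13113 tested at that level. At 100 CPM or more there were 0 higher and 2 lower, 0.177% of 1129. With 1 CPM added instead, 25 were higher and 28 lower, of 40943 tested.

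The transcripts that stood furthest apart were taken, per direction, as the 8 of smallest unadjusted p among those at a mean of 1 CPM or more. This choice favours large differences and made separate groups likely, and none passed the adjusted threshold (edgeR's quasi-likelihood test, adjusted p = 1 throughout). The 8 higher ones had log2 differences of 0.91 to 2.04. TRINITY_DN183904_c0_g3_i1 was at 1.19, 0.63 and 0.494 CPM in sustained replicates 1 to 3 and at 3.16, 3.34 and 3.17 CPM in recovery replicates 1 to 3. The recovery libraries lay close together and all 3 lay above every sustained library, with a log2 difference of 2.04 ± 0.42 (SE). Its counts were low, 11 to 38 per sustained library and 64 to 88 per recovery library. Its control mean was 1.78 ± 0.876 CPM and its acute mean 1.16 ± 0.207 CPM (SD, n = 3).

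TRINITY_DN184226_c1_g3_i1 was at 5.69, 5.67 and 8.71 CPM in the sustained libraries and at 15.5, 24.7 and 12 CPM in the recovery libraries. The groups did not overlap, recovery replicate 2 was the highest, and the log2 difference was 1.38 ± 0.31 (SE). The control mean of 13 ± 4.61 CPM and the acute mean of 14 ± 2.19 CPM (SD, n = 3) also lay above the sustained libraries. TRINITY_DN190928_c1_g1_i1 had the tightest groups, at 4.85, 3.69 and 4.85 CPM in the sustained libraries and 8.59, 9.04 and 7.57 CPM in the recovery libraries, a log2 difference of 0.91 ± 0.22. TRINITY_DN180259_c0_g6_i1 was at 1.81, 2.56 and 1.89 CPM in the sustained libraries and 3.9, 6.38 and 3.78 CPM in the recovery libraries. As in the other higher ones, the sustained group was the low one of all 4, with a control mean of 5.96 ± 1.51 CPM and an acute mean of 5.7 ± 0.424 CPM. TRINITY_DN177016_c2_g8_i1 was at 6.82 to 11.9 CPM in the sustained libraries and 14.6, 17.5 and 35.1 CPM in the recovery libraries, with recovery replicate 1 the highest. TRINITY_DN185718_c2_g13_i1 was at 0.438 to 0.583 CPM against 1.24 to 1.68 CPM, from 11 to 14 counts per sustained library.

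A pair of the 8 came from the same assembly component, which groups transcripts with shared sequence. TRINITY_DN180961_c1_g4_i1 was at 18.5, 17.6 and 19.9 CPM in the sustained libraries and 33.9, 53.6 and 27.2 CPM in the recovery libraries, a log2 difference of 1.03 ± 0.23 (SE). TRINITY_DN180961_c1_g6_i1 was at 1.31, 1.34 and 1.48 CPM and at 2.32, 4.63 and 2.96 CPM, a log2 difference of 1.26 ± 0.31. In both, recovery replicate 2 was the highest library and no recovery library overlapped the sustained ones. Across the 12 libraries the first stayed at 9.2 to 16.5 times the CPM of the second. Reads of related transcripts may have been shared between them in the counting, so the pair is not independent evidence.

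Both groups entered the choice of these transcripts, so an extreme sustained or recovery mean beside the reference groups is partly built in, here and in the lower ones. The sustained mean lay below both reference means for all 8 higher ones and above both for all 8 lower ones. The recovery mean lay above both for 6 of the 8 higher ones and below both for 7 of the 8 lower ones.

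The 8 lower ones had log2 differences of -2.77 to -0.80. TRINITY_DN168883_c0_g1_i1 had the smallest p of any transcript, at 43.6, 63 and 77 CPM in the sustained libraries and 26.7, 30.5 and 18.6 CPM in the recovery libraries. The groups did not overlap, sustained replicate 1 was the nearest to the recovery libraries, and recovery replicate 3 was the lowest. The control mean of 44.1 ± 5.3 CPM and the acute mean of 46.3 ± 3.49 CPM (SD, n = 3) lay near sustained replicate 1 and above each recovery library. TRINITY_DN179613_c1_g2_i2 had a smaller and evenly spread difference, at 21, 27.3 and 25.7 CPM in the sustained libraries and 14.3, 16.2 and 11.9 CPM in the recovery libraries, a log2 difference of -0.80 ± 0.19 (SE). Its control and acute means were 22.6 ± 2.6 and 24 ± 2.67 CPM, so the recovery group was the low one. TRINITY_DN191016_c3_g4_i1 was alike in this, at 2.74 to 3.27 CPM in the sustained libraries and 1.04, 1.33 and 1.69 CPM in the recovery libraries, against a control mean of 2.63 ± 0.0433 CPM and an acute mean of 2.27 ± 0.18 CPM.

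TRINITY_DN188871_c5_g16_i2 was at 7.79, 12 and 16.8 CPM in the sustained libraries and 3.65, 5.01 and 6.78 CPM in the recovery libraries, with a narrow gap between sustained replicate 1 and recovery replicate 3. TRINITY_DN178400_c1_g1_i1 was at 14.5, 33.8 and 17.9 CPM against 5.43, 6.43 and 12.4 CPM, and sustained replicate 2 was the highest. TRINITY_DN188164_c3_g26_i1 was at 2.33 to 3.69 CPM in the sustained libraries and 0.857 to 1.51 CPM in the recovery libraries. These 3 had log2 differences of -1.24 ± 0.29, -1.45 ± 0.38 and -1.37 ± 0.35 (SE), in that order. TRINITY_DN171295_c0_g1_i2 and TRINITY_DN166838_c0_g1_i1 rested on 5 to 16 and 5 to 7 counts per recovery library, with log2 differences of -2.10 ± 0.54 (-2.72 without recovery replicate 1) and -2.77 ± 0.73. For TRINITY_DN166838_c0_g1_i1 the sustained libraries were at 0.751, 2.64 and 1.89 CPM, above the recovery libraries at 0.247 to 0.257 CPM and the acute mean of 0.0826 ± 0.0347 CPM, while control replicate 3 alone reached 1.25 CPM.

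**Figure D3:**
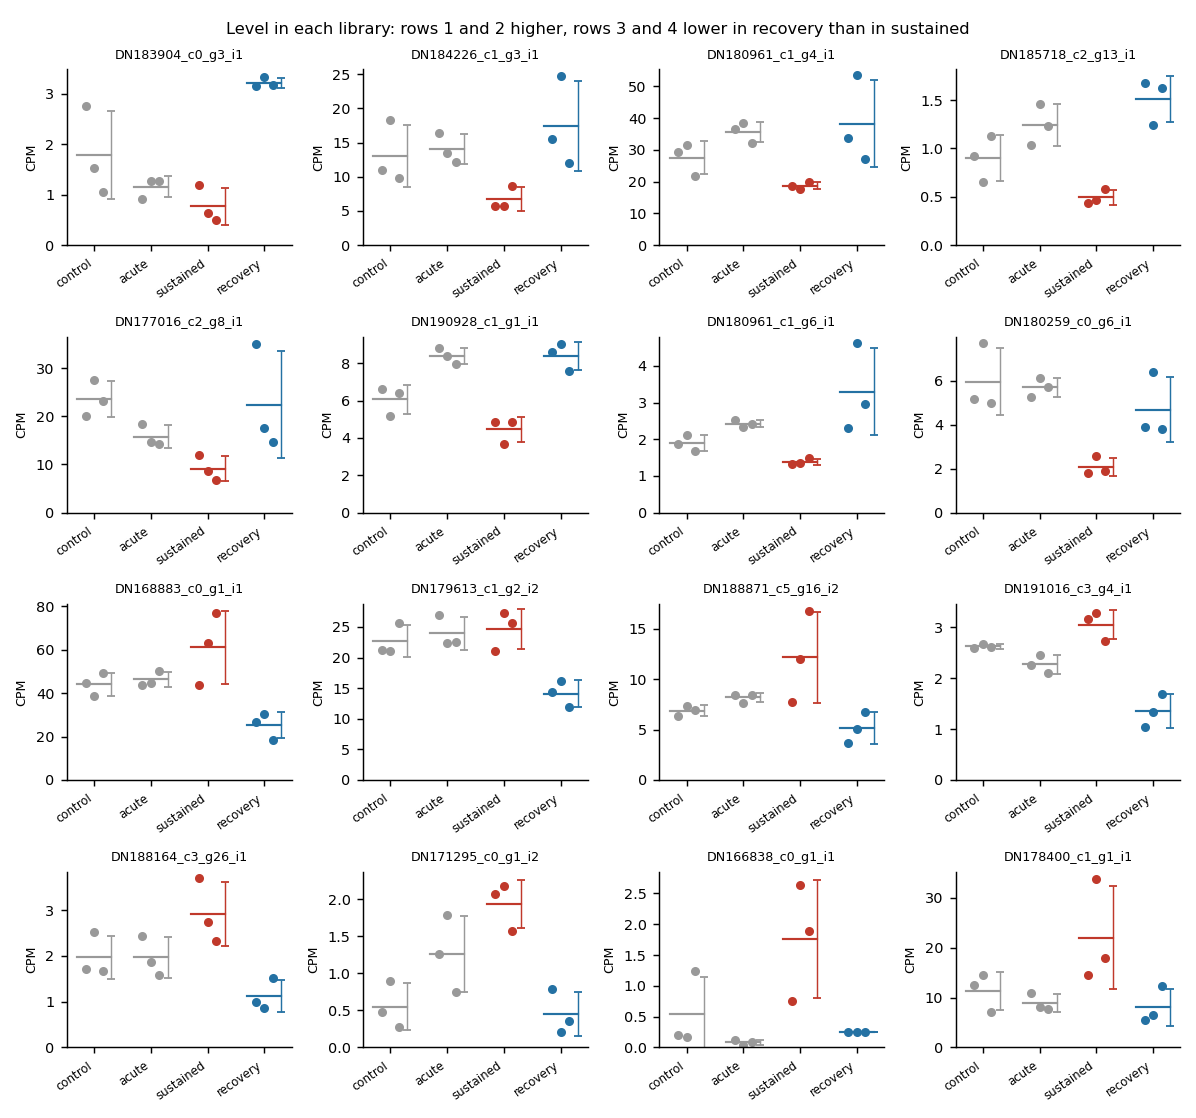
Level (CPM) of the 16 transcripts with the smallest p in each library of the 4 groups, 1 panel per transcript, with points for libraries, horizontal bars for group means and error bars for the SD (n = 3). In each panel the sustained (red) and recovery (blue) points do not overlap, which the choice by smallest p made likely.

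TRINITY_DN168648_c1_g1_i1, called by 2 of the other tests, had counts of 7, 6 and 2 in the sustained libraries and 19, 50 and 62 in recovery libraries. In CPM these were 0.219, 0.252 and 0.0898 against 0.938, 2.14 and 2.23, so recovery replicate 1 was the nearest to the sustained libraries. The control mean of 1.95 ± 0.777 CPM and the acute mean of 3.79 ± 2.29 CPM (SD, n = 3) also lay above the sustained libraries. The log2 difference was 3.19 ± 0.59 (SE), with a 95% interval from 1.94 to 4.45. Adjusted p was 0.021 in the exact test of edgeR, which called no other transcript, and 0.003 in DESeq2, and over 16 alternative settings it ran from 0.003 to 1. The second isoform of the same Trinity gene adds few counts, since the summed gene had 9, 8 and 3 counts in the sustained libraries and 19, 50 and 62 in the recovery libraries.

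Among transcripts with at least 10 CPM in both groups and groups that did not overlap, the 4 with the largest fold in each direction were also described. The widest was TRINITY_DN173294_c3_g2_i1, at 560, 4578 and 1616 CPM in the sustained libraries and 180, 215 and 184 CPM in the recovery libraries. The recovery libraries were close together while the sustained ones spanned a wide range, and the log2 difference of -3.54 ± 1.25 (SE) became -2.49 without sustained replicate 2. Its level in the control libraries was also uneven, with a mean of 432 ± 568 CPM (SD, n = 3), and the acute mean was 60.7 ± 46.7 CPM. TRINITY_DN169795_c0_g1_i1 was at 192, 237 and 213 CPM in the sustained libraries and 57.1, 32.7 and 153 CPM in the recovery libraries, so recovery replicate 3 lay near the sustained libraries. TRINITY_DN186024_c1_g10_i2 had the same shape, at 121, 151 and 131 CPM against 37.4, 24.9 and 94.5 CPM. Although their identifiers place them in separate components, the first stayed at 1.32 to 1.69 times the CPM of the second in all 12 libraries (Pearson r of log2 level 0.997 over 12 libraries, a description). Their log2 differences of -1.40 ± 0.54 and -1.36 ± 0.47 became -2.25 and -2.11 without recovery replicate 3, and limma voom gave -2.06 for TRINITY_DN169795_c0_g1_i1. The control means were 214 ± 71.6 and 132 ± 43.2 CPM and the acute means 103 ± 45.9 and 64.4 ± 23.9 CPM.

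The fourth of the lower ones, TRINITY_DN179915_c1_g3_i1, was at 31.7, 24.9 and 43.6 CPM against 15.6, 14.8 and 7.64 CPM, with control replicate 2 at 0. Of the higher ones, TRINITY_DN188039_c3_g7_i1 was at 15, 16 and 25 CPM in the sustained libraries and 31.9, 28.2 and 52.2 CPM in the recovery libraries, with control replicate 2 at 0.081 CPM. Their log2 differences were -1.40 ± 1.15 and 1.01 ± 1.01 (SE). Both SEs come from the fit of all groups, which includes control replicate 2, so they do not rest on the sustained and recovery libraries alone. TRINITY_DN187264_c3_g1_i1 was at 37.6, 19.5 and 35.6 CPM against 43.1, 135 and 37.8 CPM, and TRINITY_DN187264_c3_g4_i1 at 20, 10.6 and 20.3 CPM against 23.9, 83.2 and 21.5 CPM. In this last pair recovery replicate 2 stood alone, and without it the log2 differences of 1.22 ± 0.99 and 1.34 ± 0.97 (SE) were 0.40 and 0.43. Reference levels were higher and uneven, with control means of 210 ± 176 and 128 ± 106 CPM (SD, n = 3). The acute means were 222 ± 192 and 132 ± 105 CPM, and these libraries also enter the fit behind the SEs. Across the 12 libraries the first stayed at 1.33 to 1.87 times the CPM of the second, so the pair is not independent evidence. The remaining one, TRINITY_DN180961_c1_g4_i1, is given above. By edgeR's quasi-likelihood test the adjusted p was 1 throughout.

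The calls of DESeq2 fell into 2 kinds. For 6 of the 9, over 95% of the counts of the 6 libraries lay in a single library, recovery replicate 2 for 5 and sustained replicate 1 for 1. TRINITY_DN169864_c3_g2_i8 had 270 counts in recovery replicate 2 and 0 in the other 5 libraries. TRINITY_DN177310_c2_g4_i2 had 143 and TRINITY_DN181991_c2_g6_i1 104 in recovery replicate 2, again with 0 in the other 5. TRINITY_DN177310_c2_g3_i3 had 33 in recovery replicate 2 and 1 in recovery replicate 3, and TRINITY_DN166561_c3_g1_i8 had 20 in recovery replicate 2. TRINITY_DN138463_c0_g1_i2 had 44 in sustained replicate 1 and 0 in the rest. Other groups also held counts of some of them, such as TRINITY_DN177310_c2_g4_i2 with 1360 in control replicate 2, 398 in acute replicate 1 and 1168 in acute replicate 3. The sustained and recovery groups overlapped at 0 for these 6, and the adjusted p from edgeR's quasi-likelihood test was 1 throughout. The other 3 calls, TRINITY_DN168648_c1_g1_i1, TRINITY_DN168883_c0_g1_i1 and TRINITY_DN183904_c0_g3_i1, had groups that did not overlap, and had adjusted p of 0.003, 0.0073 and 0.025 in DESeq2. Over the alternative settings the adjusted p of each of the latter 2 reached 1. A DESeq2 fit of only the 6 libraries, added after the values were seen, called 11 of 38237 transcripts (0.0288%), of which 3 were shared with the 9 and were these 3. It also called 4 transcripts described above that the fit of 12 libraries did not, TRINITY_DN166838_c0_g1_i1 and TRINITY_DN184226_c1_g3_i1 (adjusted p = 0.0416 for both), TRINITY_DN173294_c3_g2_i1 (adjusted p = 0.0262) and TRINITY_DN179915_c1_g3_i1 (adjusted p = 0.0335). The remaining 4 are named only because this fit called them. TRINITY_DN189273_c2_g2_i2 was at 4.47, 9.7 and 8.35 CPM in sustained and 2.52, 1.89 and 1.55 CPM in recovery libraries, and TRINITY_DN189501_c6_g2_i2 at 1.85, 0.882 and 1.08 CPM against 0, 0.129 and 0.036 CPM. TRINITY_DN174350_c4_g33_i1 was at 11.3, 6.38 and 9.43 CPM in sustained and 30.2, 23.7 and 16.7 CPM in recovery libraries, and TRINITY_DN191969_c1_g3_i4 at 1.6, 0.924 and 3.55 CPM against 6.86, 5.1 and 11.2 CPM. Both lower and both higher ones had groups that did not overlap. Without recovery replicate 2, with 4 groups in the fit, DESeq2 called 0, and 744 transcripts had an unadjusted p under 0.05 in edgeR's quasi-likelihood test.

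Recovery replicate 2 also held a larger set of transcripts that were far lower in its 2 partner libraries. At a mean of 1 CPM or more, 72 transcripts in 61 components were at least 8-fold above both other recovery libraries in recovery replicate 2, after adding 0.2 CPM, against 3 for recovery replicate 1, 9 for recovery replicate 3 and 3 to 7 for the sustained libraries. The set was chosen on these values. Its summed level was 1416 CPM in recovery replicate 2, 40 and 34.1 CPM in recovery replicates 1 and 3, and 95, 51.8 and 70.9 CPM in the sustained libraries. High sums also occurred in single libraries of both reference groups, at 2211 CPM in control replicate 2, 1449 CPM in acute replicate 1 and 2346 CPM in acute replicate 3, against 315, 52.5 and 93.2 CPM in control replicates 1 and 3 and acute replicate 2. All of those 3 libraries held 33 of the 72 at 5 CPM or more, and 13 were at that level in none of the 3. TRINITY_DN171759_c1_g2_i1 shows the pattern, with 2085 counts in recovery replicate 2, 1 and 4 in the other recovery libraries, and 0, 9 and 1 in the sustained libraries. In the reference groups it had 2346 counts in control replicate 2 but 0 and 1 in the other controls, and 3482, 0 and 4272 counts in acute replicates 1 to 3. TRINITY_DN173686_c0_g1_i1 had 2502 counts in recovery replicate 2, 44 and 21 in the other recovery libraries and 5 to 26 in the sustained libraries. High and low libraries of the set thus occurred within the recovery, control and acute groups alike, and the origin of these transcripts was not tested.

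**Figure D4:**
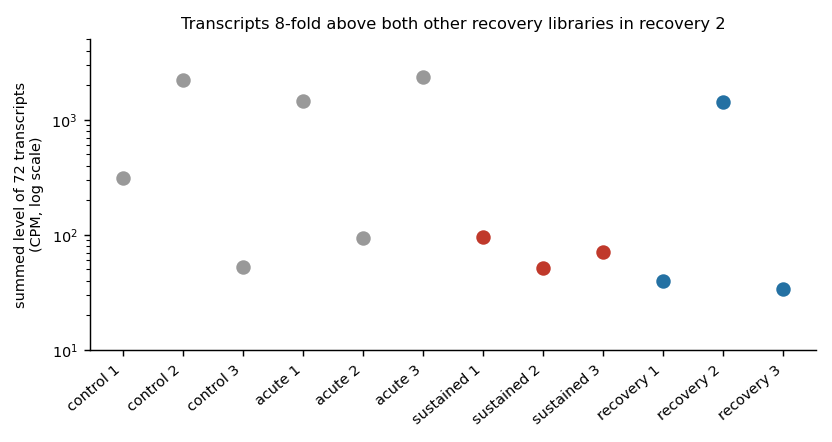
Summed level (CPM, log scale) of the 72 transcripts chosen for being at least 8-fold above both other recovery libraries in recovery replicate 2, in each of the 12 libraries, 1 point per library. Recovery 2, control 2, acute 1 and acute 3 lie at 1416 to 2346 CPM and the others at 34.1 to 315 CPM.

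Some assembly components held several transcripts that leaned the same way. The 877 transcripts with an unadjusted p under 0.05 came from 811 components, of which 58 held 2 or more of them. In these the transcripts were all higher in 15 components, all lower in 35 and mixed in 8. The number of components tested is not given here, so these counts have no background share. The lean of single transcripts towards lower depended on scaling and on the libraries used. It was 66 higher and 983 lower with library totals alone, and 452 higher and 358 lower without recovery replicate 1. Components share sequence and may share reads, so their transcripts are not independent. Those with 3 or more, singled out after their values were seen, numbered 6, and in each the transcripts with a p under 0.05 were lower in the recovery group. In TRINITY_DN193151_c1 this held for 3 of 3 tested transcripts. TRINITY_DN193151_c1_g10_i1 was at 890, 1528 and 962 CPM in the sustained libraries and 666, 841 and 824 CPM in the recovery libraries, a log2 difference of -0.54 ± 0.22 (SE). TRINITY_DN193151_c1_g2_i1 and TRINITY_DN193151_c1_g8_i1 had log2 differences of -0.52 ± 0.21 and -0.51 ± 0.22, with sustained replicate 2 the highest library in all 3. For TRINITY_DN193151_c1_g10_i1 the control and acute means were 1232 and 1289 CPM, above the sustained mean of 1127 CPM. In TRINITY_DN172369_c3, 4 of 5 transcripts had a p under 0.05, among them TRINITY_DN172369_c3_g8_i2 at 55.9, 59.8 and 93.1 CPM in the sustained libraries and 36.8, 38.9 and 50.8 CPM in recovery libraries. In TRINITY_DN189753_c2, 4 of 9 did, with log2 differences from -3.28 to -0.97. The -3.28 ± 1.47 (SE) belonged to TRINITY_DN189753_c2_g16_i1, at 0.563, 1.18 and 0 CPM in the sustained libraries. It was at 0, 0.0857 and 0.0721 CPM in the recovery libraries, and its groups overlapped, unlike those of the rest of the 4.

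Reads were then added up over the isoforms of each Trinity gene. Of 32886 genes, 0 (0%) passed edgeR's quasi-likelihood test on summed counts (lowest adjusted p = 1), and 684 (2.08%) had an unadjusted p under 0.05. In simulated counts this test recovered 77 of 100 genes holding a transcript changed 8- or 16-fold. The 2 genes with the smallest p in each direction were TRINITY_DN183904_c0_g3 and TRINITY_DN168648_c1_g1, higher, and TRINITY_DN183421_c3_g2 and TRINITY_DN174846_c3_g1, lower. TRINITY_DN183421_c3_g2 had 20, 16 and 18 counts in the sustained libraries and 2, 1 and 1 in the recovery libraries, with a control mean of 1.24 ± 0.164 CPM and an acute mean of 0.641 ± 0.515 CPM. TRINITY_DN174846_c3_g1 had 7, 9 and 13 counts against 0, 0 and 1. Every recovery library was below every sustained library in both, at low counts.

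Isoform usage, the share of each isoform within its gene, was tested in the 6637 genes with 2 or more tested isoforms. In simulated counts the test used recovered 31 of 50 genes with 1 isoform changed 8-fold. With edgeR's differential usage test, 0 genes (0%) had an adjusted p under 0.05 (lowest adjusted p = 1), and 28 (0.422%) had an unadjusted p under 0.05. In TRINITY_DN167017_c0_g1, the gene with the smallest p, the minor isoform TRINITY_DN167017_c0_g1_i4 made up 9.09%, 6.99% and 6.09% of the counts in the sustained libraries and 9.22%, 14.1% and 34.7% in recovery libraries. Recovery replicate 3 stood highest, and control and acute means were 8.46% and 7.94%. In TRINITY_DN189135_c1_g17, the minor isoform TRINITY_DN189135_c1_g17_i2 made up 5.77%, 3.51% and 4.08% in the sustained libraries and 1.41%, 0.616% and 0.855% in the recovery libraries. These groups did not overlap, and the control and acute means of 4.19% and 3.64% lay near the sustained ones. Its counts were 15 to 35 per sustained library and 3 to 7 per recovery library. In TRINITY_DN182835_c2_g7, the isoform TRINITY_DN182835_c2_g7_i1 made up 6.61%, 19.2% and 2.76% against 0%, 2.4% and 1.03%, while the other 2 isoforms overlapped between groups. Counts of TRINITY_DN182835_c2_g7_i1 were low, 15, 29 and 4 in the sustained libraries and 0, 4 and 2 in the recovery libraries.

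No transcript was switched fully on or off at a level well above the floor. With 0 counts in all 3 libraries of a group and 10 or more in each of the other, there were 0 transcripts in either direction (0%). With 1 or more in place of 10, there were 5 absent from the sustained libraries (0.0122%) and 3 absent from the recovery libraries (0.00733%). TRINITY_DN158566_c4_g2_i1 had 12, 17 and 3 counts in the sustained libraries and 0 in the recovery libraries, and TRINITY_DN168638_c1_g1_i2 had 6, 32 and 8 against 0. TRINITY_DN170876_c1_g3_i3 had 0 in the sustained libraries and 1, 146 and 1 in the recovery libraries, again with recovery replicate 2 apart. A count of 0 in a library allows up to 3 counts, so low levels in those libraries were not detectable at this depth.

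The 5 transcripts with the most counts, by mean share over the 6 libraries, did not separate the groups. TRINITY_DN157064_c6_g3_i1, the transcript with the large share above, had a log2 difference of 1.05 ± 2.37 (SE), with a 95% interval from -4.39 to 6.49. The log2 difference was 0.57 without sustained replicate 2 and 2.24 without sustained replicate 3. The interval comes from the fit of all 12 libraries, so it does not rest on the spread of the 6 alone. In that fit the transcript took 0.00387% of counts in control replicate 3 and 0.00986% in acute replicate 1. Its share was 17.9% to 26.0% in the other control and acute libraries. The 4 next ones were bounded far more closely. TRINITY_DN190772_c7_g6_i3 was at 30252, 28873 and 26059 CPM in the sustained libraries and 30585, 29313 and 22791 CPM in the recovery libraries, a log2 difference of -0.04 ± 0.16 with a 95% interval from -0.38 to 0.29. TRINITY_DN169471_c2_g2_i1, TRINITY_DN171713_c5_g3_i1 and TRINITY_DN190198_c2_g1_i1 had log2 differences of -0.02 ± 0.15, 0.15 ± 0.18 and -0.16 ± 0.16, with intervals from -0.35 to 0.31, from -0.24 to 0.53 and from -0.49 to 0.17. The groups overlapped in all 5. Relative to library totals alone, TRINITY_DN171713_c5_g3_i1 changed direction, to -0.22.

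The spread within groups was wider in the recovery than in the sustained libraries. Over 27830 transcripts at a mean of 1 CPM or more, the median range between the highest and lowest library was 1.39-fold for sustained and 1.55-fold for recovery libraries, against 1.45-fold in the acute and 1.58-fold in the control group. More than 10-fold ranges occurred for 60 transcripts (0.216%) among sustained and 162 (0.582%) among recovery libraries. The counts were 159 (0.571%) among acute and 1084 (3.90%) among control libraries, so the recovery group was not the widest of the 4. With 3 libraries per group this difference in spread was not tested. Whether the difference between a last day at 14 °C and a last day at 17 °C depended on the earlier temperature was tested as an interaction over the 4 groups, and edgeR's quasi-likelihood test called 0 transcripts (lowest adjusted p = 0.999).

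**Figure D5:**
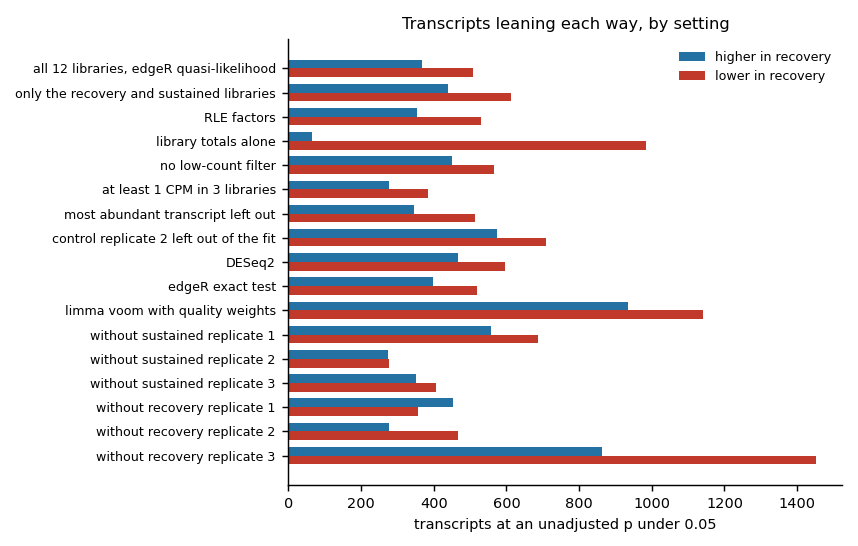
Number of transcripts with an unadjusted p under 0.05 (horizontal axis), higher (blue) or lower (red) in the recovery group, for each test, scaling, filter or left-out library. The totals run from 550 without sustained replicate 2 to 2316 without recovery replicate 3, and scaling by library totals alone gives 66 higher and 983 lower.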

How the data were processed

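Whole adults were the source of RNA for stranded, paired-end poly(A) libraries, per the labels' protocols. What the authors deposited is a table of raw counts for each Trinity transcript. Among tools, the submitters' processing notes list HTSeq 0.6.1, Trim Galore 0.4.1, TopHat2 2.1.1 and edgeR, with no role for any. How the assembly was made and reads were counted is not given in the sources used here. Groups follow the treatment labels. Replicates are vessels, numbered in order of deposit, and the spread behind each p-value is that between vessels. Replicates were compared by chi-square per degree of freedom, which was 12.5 to 40.9 for pairs within the sustained and recovery groups, and none was treated as a repeat.

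Transcripts were tested with edgeR 4.0.16 in R 4.3.3 (quasi-likelihood, robust, TMM scaling, minimum count 10, minimum total 15, prior count 0.125), with 4 groups in one fit and 8 residual degrees of freedom. P-values were Benjamini-Hochberg adjusted over all transcripts, with a threshold of 0.05. CPM values are TMM-scaled and not per length. SE was taken from the log2 difference and the F statistic, and 95% intervals rest on it. Summed counts used the same test, and isoform usage edgeR's diffSpliceDGE with Simes p-values. Alternatives used DESeq2 1.42.0, edgeR's exact test and limma 3.58.1. The floor of 3 counts covers counting error only. The transcript, summed-count and isoform usage tests were run on simulated counts, but the interaction and permutation tests were not. With 39466 simulated transcripts, false calls numbered 45 for DESeq2, 24 for the exact test and 4 each for edgeR's quasi-likelihood test and limma voom. Of 50 transcripts changed 2-fold, these tests recovered 13, 7, 4 and 5, in that order. Of 50 changed 8-fold they recovered 47, 47, 45 and 36. Summed counts recovered 77 of 100 genes holding a transcript changed 8- or 16-fold, with 3 false calls. Isoform usage recovered 31 of 50 genes with 1 isoform changed 8-fold, with 2 false calls. Each simulated library had the same mean composition, and transcripts varied independently. Summaries and plots used Python 3.11.15, pandas 2.3.3, NumPy 2.4.6 and matplotlib 3.10.9.

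Named transcripts were the 8 with the smallest p in each direction at 1 CPM or more, all calls of DESeq2, edgeR's exact test or limma voom on the 12 libraries, the 5 with most counts, the 4 of largest fold in each direction at 10 CPM or more, and the leading genes for isoform usage and summed counts. This comparison, its lists and tests were chosen with earlier results of these data known. The components, the 72 transcripts high in recovery replicate 2, the DESeq2 fits without recovery replicate 2 and on 6 libraries were added after the values were seen, as were 4 transcripts named because the last of these called them.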

Additional observations from a re-analysis of the deposited data

How the results depend on the processing

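No transcript passed edgeR's quasi-likelihood test under any scaling, filter or left-out library run, nor limma voom, while DESeq2 called 9, DESeq2 on only the 6 libraries 11 and edgeR's exact test 1. The number with an unadjusted p under 0.05 was 2077 with limma voom and 550 to 2316 with a library left out. Groups that did not overlap and were 2-fold apart numbered 579 with library totals alone and 53 with 1 CPM added, both of 40943 tested. With at least 1 CPM in 3 libraries they numbered 211 of 31752. With a library left out, where fewer libraries overlap less, they ran from 565 of 42528 to 1475 of 41795. These extremes were without sustained replicate 2 and without recovery replicate 3. Intervals within 4-fold covered 90.9% of transcripts with only the 6 libraries, 75.5% with library totals alone, 82.2% without control replicate 2 and 72.1% to 75.3% with a library left out. Summed counts and isoform usage called 0 genes under each alternative run. Library differences kept their sign without any library, with the share of TRINITY_DN157064_c6_g3_i1 8.27 to 26.7 points higher in the recovery group.

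Of 659 log2 differences of the 42 named transcripts under alternatives, 647 kept their direction. Of the 12 that reversed, library totals alone gave -0.22 for TRINITY_DN171713_c5_g3_i1, -0.11 and -0.011 for TRINITY_DN182835_c2_g7_i2 and TRINITY_DN182835_c2_g7_i3 and -0.31 for TRINITY_DN189135_c1_g17_i1. Limma voom gave 0.0284 for TRINITY_DN169471_c2_g2_i1 and 0.0276 for TRINITY_DN190772_c7_g6_i3. With a library left out, TRINITY_DN169471_c2_g2_i1 ran from -0.11 to 0.0569, TRINITY_DN190772_c7_g6_i3 from -0.13 to 0.0768 and TRINITY_DN189135_c1_g17_i1 from -0.10 to 0.34. In 5 cases no value could be had, since both groups were at 0. The cause of these shifts was not tested. No paired analysis was possible because the labels give no replicate numbers that groups share.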
